A study of Mus musculus with 9 samples.

Results

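Slc38a4 and 7 other carriers that bring amino acids into cells (Slc38a1, Slc38a2, Slc7a5, Slc3a2, Slc7a1, Slc1a4 and Slc1a5) were followed in basal keratinocytes of mouse footpad skin. They are 8 of the 22399 genes in the deposited expression table and were taken from it by gene name. Slc38a4 was chosen by its measured level, which was low in both aged and high-fat-diet animals relative to control. Its differences between groups are therefore given below as a description, with no test. The other 7 were added by function.

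RNA-seq was done on 9 libraries in 3 groups of 3, all from wild-type C57BL/6 mice. The aged mice had reached 24 months, with no diet stated. HFD mice had been fed a high-fat diet and control mice a normal diet, both at 5 months of age. In every group, plantar skin was trypsinized and interfollicular basal cells were sorted as positive for CD49f, the integrin alpha 6 chain, and negative for CD34, a hair follicle stem cell marker. Whether samples of 1 group are separate animals is not stated, so the p-values measure a spread between samples that may be only technical. Levels are the authors' FPKM (fragments per kilobase of gene, scaled to library depth), as mean ± SD over 3 libraries. Differences are of mean log2(FPKM + 1) with the SE of limma, a scale that understates changes of low genes, and a gene was called when its p, adjusted by Benjamini-Hochberg over the 10367 genes that averaged at least 1 FPKM, was under 0.05.

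The libraries held an estimated 23.5 to 35.8 M reads. Basal markers were high in all 9, with Krt5 between 10316 and 14406 FPKM, Krt14 between 11012 and 14788 FPKM, Trp63 between 73.1 and 100.3 FPKM and Itga6 between 114 and 167 FPKM. Cd34 stayed at or below 0.0671 FPKM. Keratins of the layers above were also present, Krt1 at 1163 to 2318 FPKM and Krt10 at 3328 to 6493 FPKM.

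Cells take up neutral amino acids along the sodium gradient through the system A carriers of the Slc38 family and through the Slc1a4 and Slc1a5 exchangers. Slc7a5, the light chain of LAT1, pairs with the heavy chain Slc3a2 (CD98) and exchanges internal glutamine for external leucine and other large neutral amino acids, while Slc7a1 admits arginine and lysine. The amino acids that enter feed protein synthesis and keep the growth kinase complex mTORC1 active, and when they run short the kinase GCN2 and the transcription factor ATF4 switch on genes of amino acid uptake and synthesis. Slc38a4 is an imprinted gene in the mouse, expressed mainly from the paternal copy, and is best known from liver and placenta.

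The 3 Slc38 genes follow each other on the minus strand of chromosome 15 (GRCm38). Slc38a4 spans chr15:96994820-97055956, Slc38a2 chr15:96687392-96699730 and Slc38a1 chr15:96571418-96642913. The start of Slc38a4 is 356 kb from that of Slc38a2 and 413 kb from that of Slc38a1. No exon base of the 8 genes is shared with another annotated gene. The sequences that follow are the 250 bases before each RefSeq start (GRCm38.p6) of Slc38a4 and of its neighbour Slc38a2. Slc38a4 had the lowest log2 difference of aged from control cells among the 10367 genes that averaged at least 1 FPKM. It was chosen for this low level, so the rank is a description. Slc38a2 was not called in any comparison. The sequences are written 5′ to 3′ on the minus strand, and capitals mark CG pairs. The windows are chr15:97055957-97056206, chr15:97031214-97031463 and chr15:97020360-97020609 for the 3 starts of Slc38a4, and chr15:96699729-96699978 for Slc38a2.
Slc38a4 start 1: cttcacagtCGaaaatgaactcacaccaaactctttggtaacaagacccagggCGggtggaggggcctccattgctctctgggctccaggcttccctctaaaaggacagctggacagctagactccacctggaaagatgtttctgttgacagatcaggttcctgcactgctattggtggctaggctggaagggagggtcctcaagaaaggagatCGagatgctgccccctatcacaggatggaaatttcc
Slc38a4 start 2: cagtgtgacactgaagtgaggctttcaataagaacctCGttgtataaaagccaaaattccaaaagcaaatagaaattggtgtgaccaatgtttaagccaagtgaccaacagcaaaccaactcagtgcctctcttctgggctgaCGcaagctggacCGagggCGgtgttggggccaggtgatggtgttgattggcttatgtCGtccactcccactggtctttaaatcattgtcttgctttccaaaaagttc
Slc38a4 start 3: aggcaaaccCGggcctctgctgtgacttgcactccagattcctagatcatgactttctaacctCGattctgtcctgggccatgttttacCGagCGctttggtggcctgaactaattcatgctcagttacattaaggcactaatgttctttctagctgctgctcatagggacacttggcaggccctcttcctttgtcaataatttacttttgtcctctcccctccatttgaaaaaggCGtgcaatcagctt
Slc38a2: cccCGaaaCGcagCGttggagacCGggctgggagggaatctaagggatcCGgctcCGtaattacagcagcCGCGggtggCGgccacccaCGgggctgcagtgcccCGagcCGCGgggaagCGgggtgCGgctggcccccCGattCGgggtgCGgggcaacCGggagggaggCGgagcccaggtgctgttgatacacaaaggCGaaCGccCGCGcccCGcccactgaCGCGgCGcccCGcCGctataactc

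The Slc38a4 windows hold 3, 5 and 5 CG pairs, against 30 in that of Slc38a2. Over all 32851 windows of this length in the table the median is 6, and 37.8% hold 3 or fewer, 49.6% hold 5 or fewer and 94.8% hold 30 or fewer. GC content is 52.8%, 46.0% and 47.2% in the Slc38a4 windows and 72.0% in that of Slc38a2. Each window was searched on both strands for 4 motifs. GGGCGG, the GC box, is in the windows of the first and second Slc38a4 starts and in that of Slc38a2, and 32.7% of all windows hold it. CACGTG, an E-box core that circadian clock and MYC proteins can bind, is in none of the 4, and 6.02% of all windows hold it. TTGCATCA, a composite motif of ATF4 with C/EBP proteins, is in none of them either (0.791% of all windows), and neither is the AP-1 motif TGACTCA (4.46%). These are matches of letters within 250 bases, and binding was not measured. Of the other members, Slc3a2, Slc7a1 and Slc1a4 had windows in the RefSeq table and Slc38a1, Slc7a5 and Slc1a5 were not matched. The first Slc7a1 window has the AP-1 motif.

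Within the system A carriers, Slc38a4 was low in both aged and HFD cells while Slc38a2 stayed high in every library. Slc38a4, which carries small neutral amino acids, was at 2.56, 2.998 and 1.58 FPKM in aged cells, at 3.36, 6.75 and 4.10 FPKM in HFD cells and at 12.1, 10.5 and 10.01 FPKM in control cells. The 3 groups did not overlap, in the order aged, HFD, control, although the highest aged library and the lowest HFD library were close. These levels rest on an estimated 206 to 1670 reads per library. The means were 2.38 ± 0.728 FPKM in aged cells, 4.74 ± 1.78 FPKM in HFD cells and 10.9 ± 1.06 FPKM in control cells, so that the aged mean was 21.9% and the HFD mean 43.6% of the control mean. The log2 difference from control was -1.83 ± 0.20 in aged cells, the lowest of the 10367 genes, and -1.09 ± 0.20 in HFD cells, rank 12 from the lowest. In bulk RNA, fewer cells with the transcript and less transcript per cell cannot be told apart.

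Aged against HFD cells gave a log2 difference of -0.74 ± 0.20 for Slc38a4, and all 3 aged libraries were below all 3 HFD libraries. This value rests on the same libraries that the gene was chosen on and is likewise given with no test. Over 20 alternative settings it ranged over -0.95 to -0.51.

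Other cell types were followed with marker lists in the same libraries. The summed fibroblast markers were at 3.92 to 4.74 FPKM in aged, 1.93 to 3.08 FPKM in HFD and 5.07 to 7.90 FPKM in control libraries. Only Dcn, the proteoglycan decorin, reached a mean of 1 FPKM among the 10 listed. Dcn was at 3.78 ± 0.576 FPKM in aged, 2.03 ± 0.531 FPKM in HFD and 5.22 ± 1.09 FPKM in control cells. It fell by 1.04 ± 0.16 in HFD against control (adjusted p = 0.00239) and rose by 0.67 ± 0.16 in aged against HFD cells (adjusted p = 0.0248), with -0.37 ± 0.16 in aged against control (adjusted p = 0.160). Lum, Pdgfrb and Dpt were at 0 in every library, and Col1a1, the main fibroblast collagen, reached at most 0.176 FPKM. The 11 markers of spinous and granular keratinocytes, all detected, summed to 10185 to 13324 FPKM in aged, 7964 to 10575 FPKM in HFD and 8667 to 10340 FPKM in control libraries. Krt1 rose by 0.61 ± 0.13 in aged against control cells (adjusted p = 0.0198). Itga6, which encodes the sorted CD49f chain, rose by 0.29 ± 0.07 in HFD against control (adjusted p = 0.0168) and fell by 0.40 ± 0.07 in aged against HFD cells (adjusted p = 0.00575). Hair follicle and sebaceous markers (6 of 8 at 1 FPKM or more, led by Krt17) summed to 396 to 430 FPKM in aged, 254 to 340 FPKM in HFD and 246 to 379 FPKM in control libraries. Krt17 alone averaged 198 FPKM over the 9 libraries, while Cd34, on the same list, reached at most 0.0671 FPKM. Sweat gland markers (4 of 8) summed to 31.6 to 33.0 FPKM in aged, 43.3 to 52.6 FPKM in HFD and 27.3 to 28.7 FPKM in control libraries. Slc12a2 led this sum, at a mean of 20.6 FPKM over the 9 libraries. The part of these lists in the transporter results was not tested.

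Slc38a2, the widely expressed system A carrier that cells raise when amino acids run short, had the highest level of the 8 genes. It was at 83.9, 80.8 and 79.7 FPKM in aged cells, at 88.9, 94.3 and 101.2 FPKM in HFD cells and at 90.3, 90.6 and 90.8 FPKM in control cells. The 3 aged libraries lay below all others, by little. The log2 differences were -0.15 ± 0.07 in aged against control (adjusted p = 0.177), 0.06 ± 0.07 in HFD against control (adjusted p = 0.531) and -0.21 ± 0.07 in aged against HFD cells (adjusted p = 0.0704), none of them called. The 95% intervals were -0.30 to -0.01 in aged against control and -0.08 to 0.21 in HFD against control. The direction in HFD cells turned to -0.03 with quantile normalization and with a correction for GC content.

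Slc38a1, the third system A carrier, was next to absent. It had 0 FPKM in all 3 aged libraries, 0.00653, 0 and 0.0112 FPKM in HFD and 0.00357, 0.0144 and 0 FPKM in control libraries, an estimated 0 to 6 reads each. No difference can be given at this depth.

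The summed level of the 3 system A genes was 86.5, 83.8 and 81.3 FPKM in aged, 92.3, 101.1 and 105.3 FPKM in HFD and 102.4, 101.1 and 100.8 FPKM in control libraries. Slc38a4 made up 2.95%, 3.58% and 1.94% of that sum in aged, 3.64%, 6.67% and 3.89% in HFD and 11.8%, 10.4% and 9.94% in control libraries. Slc38a2 supplied most of the system A transcript in each library, and the sum in HFD overlapped with control.

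**Figure D1:**
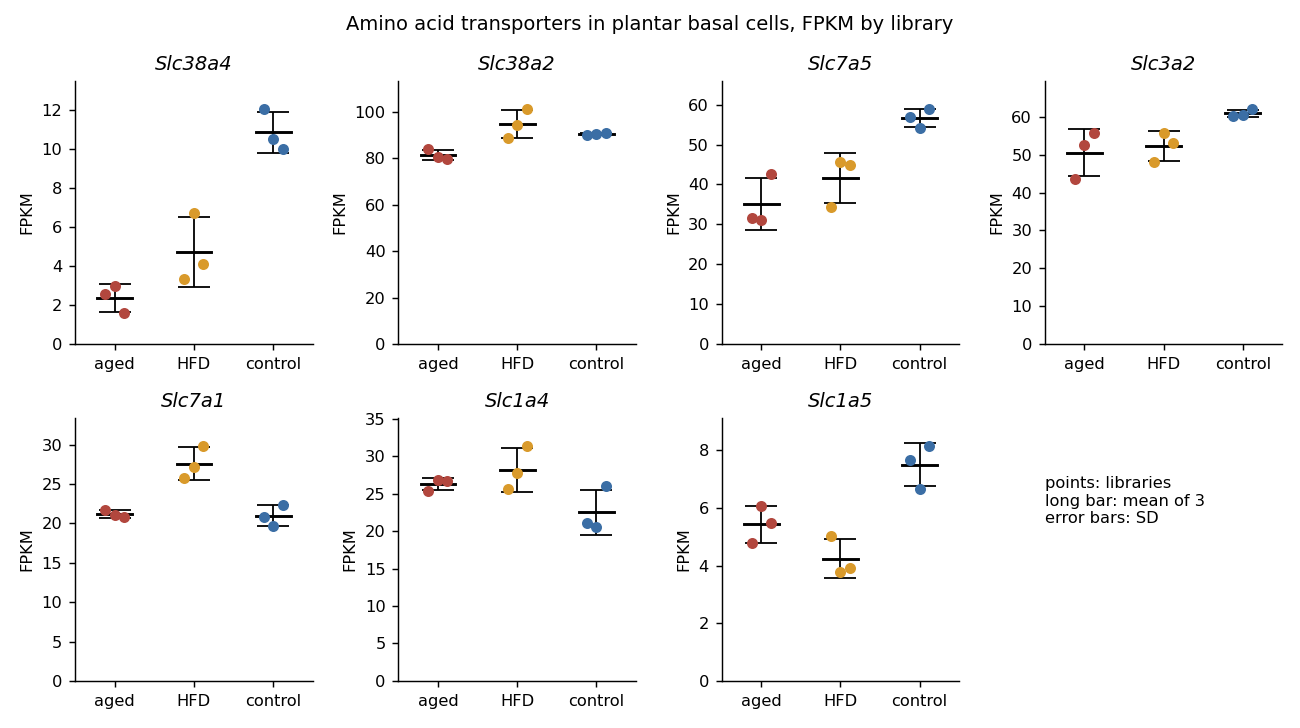
FPKM of the 7 members averaging at least 1 FPKM, 1 panel per gene, with libraries as points, the mean of 3 as a long bar and the SD as error bars for aged, HFD and control. Slc38a4 is lowest in aged (2.38 FPKM on average) and highest in control (10.9 FPKM), Slc7a5 and Slc1a5 are below control in both groups, and all 3 HFD points of Slc7a1 (25.8 to 29.8 FPKM) are above the aged and control points.

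The light chain of LAT1 fell in both groups, and the heavy chain, at a higher level, was lower by less and was not called. Slc7a5, through which leucine enters, was at 31.7, 31.2 and 42.7 FPKM in aged cells, at 34.4, 45.7 and 44.9 FPKM in HFD cells and at 56.8, 54.3 and 58.8 FPKM in control cells. Every aged and HFD library was below every control library, and the aged and HFD libraries overlapped. Slc7a5 fell by 0.69 ± 0.13 in aged against control (adjusted p = 0.0115) and by 0.45 ± 0.13 in HFD against control (adjusted p = 0.0371), which put the aged mean at 62.1% and the HFD mean at 73.5% of that of control. Aged and HFD cells differed by -0.24 ± 0.13 (adjusted p = 0.281, 95% interval -0.52 to 0.04).

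The aged call of Slc7a5 was made in 20 of 20 alternative settings, with adjusted p up to 0.0492. The HFD call was made in 12 of 20 and ended with the GC correction (-0.31, adjusted p = 0.0904), with no filter on low values and on leaving out any single control library or HFD replicate 1 or 3, with values up to an adjusted p of 0.129. Slc7a5 transcripts have a GC content of 56.3%, and over 10365 genes the log2 differences in HFD against control ran with GC content at a Spearman's rho of -0.46 across genes (-0.33 in aged against control).

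Slc3a2, the CD98 heavy chain that carries LAT1 to the cell surface and also binds integrin beta chains, was at 43.5, 52.4 and 55.6 FPKM in aged cells, at 48.1, 55.7 and 53.0 FPKM in HFD cells and at 60.3, 60.5 and 62.0 FPKM in control cells. Again all 6 aged and HFD libraries were below the 3 control libraries. The log2 differences were -0.27 ± 0.09 in aged against control (adjusted p = 0.0889) and -0.22 ± 0.09 in HFD against control (adjusted p = 0.115). Without aged replicate 3 the aged difference was called (adjusted p = 0.0362). Aged against HFD gave -0.05 ± 0.09 (adjusted p = 0.761), and that sign turned to 0.05 without aged replicate 1.

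The FPKM ratio of light to heavy chain was 0.727, 0.594 and 0.768 in aged, 0.715, 0.821 and 0.847 in HFD and 0.943, 0.897 and 0.950 in control libraries. It was below every control library in all aged and HFD libraries. Its mean was 0.697 ± 0.0908 in aged, 0.794 ± 0.0696 in HFD and 0.930 ± 0.0289 in control cells. An exact two-sided permutation test gave p = 0.1 for aged against control and for HFD against control, the smallest that 3 against 3 libraries allow, and p = 0.3 for aged against HFD (adjusted over the 3 comparisons, 0.15, 0.15 and 0.3). With 3 libraries a group this test could not reach 0.05 for any values.

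**Figure D2:**
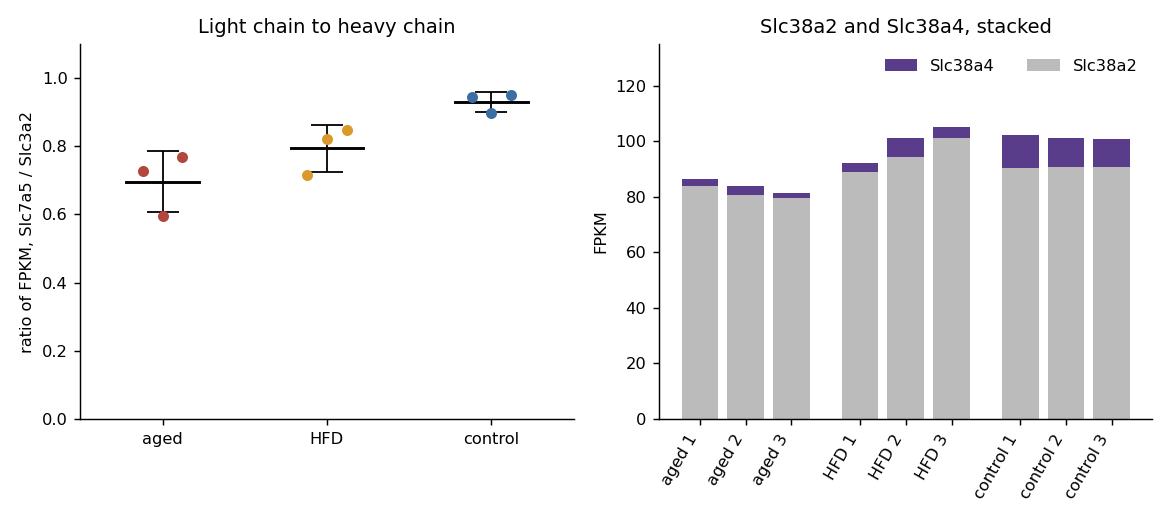
Left, the ratio of Slc7a5 to Slc3a2 FPKM in each library, with mean and SD of 3, in aged, HFD and control. Right, FPKM of Slc38a2 and Slc38a4 stacked for each of the 9 libraries, where Slc38a4 is 1.94% to 3.58% of the system A sum in aged, 3.64% to 6.67% in HFD and 9.94% to 11.8% in control libraries.

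Slc7a1, the main carrier of arginine, lysine and ornithine, rose in HFD cells. It was at 21.8, 21.04 and 20.9 FPKM in aged cells, at 25.8, 27.1 and 29.8 FPKM in HFD cells and at 20.8, 19.7 and 22.4 FPKM in control cells. All HFD libraries were above all others, and the aged libraries lay within the control range. Slc7a1 rose by 0.38 ± 0.08 in HFD against control (adjusted p = 0.00799), to 132% of the control mean. In aged against HFD cells it fell by 0.36 ± 0.08 (adjusted p = 0.0152). Aged against control gave 0.02 ± 0.08 (adjusted p = 0.905), with a 95% interval of -0.15 to 0.18. The HFD call was made in 20 of 20 alternative settings and the aged against HFD call in 19 of 20, ending without HFD replicate 3 (adjusted p = 0.0671).

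The related exchangers Slc1a4 and Slc1a5 went opposite ways in HFD cells. Slc1a5 (ASCT2), a carrier of glutamine as well as alanine, serine and cysteine, was at 4.78, 6.06 and 5.47 FPKM in aged cells, at 5.02, 3.77 and 3.92 FPKM in HFD cells and at 7.67, 6.67 and 8.14 FPKM in control cells. Both groups lay below control without overlap, HFD the lower of them on average. Slc1a5 fell by 0.70 ± 0.11 in HFD against control (adjusted p = 0.00337), to 56.5% of the control mean, and this was called in 20 of 20 alternative settings. In aged against control the difference was -0.40 ± 0.11 (adjusted p = 0.0546), just over the threshold, and it was called with scaling to total FPKM (0.0416) and without HFD replicate 1 (0.0420). Aged against HFD gave 0.30 ± 0.11 (adjusted p = 0.129).

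Slc1a4 (ASCT1), which exchanges alanine, serine, cysteine and threonine, was at 25.4, 26.8 and 26.7 FPKM in aged cells, at 25.6, 27.7 and 31.4 FPKM in HFD cells and at 21.02, 20.6 and 25.96 FPKM in control cells. Control replicate 3 reached into the range of both other groups. Slc1a4 rose by 0.32 ± 0.10 in HFD against control (adjusted p = 0.0473), to 125% of the control mean. That call was made in 10 of 20 alternative settings (adjusted p up to 0.160), and ended without control replicate 1 or 2, without any HFD library, without aged replicate 1 or 2, and with 3 other settings. The aged difference was 0.22 ± 0.10 (adjusted p = 0.179), and aged against HFD gave -0.09 ± 0.10 (adjusted p = 0.605).

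**Figure D3:**
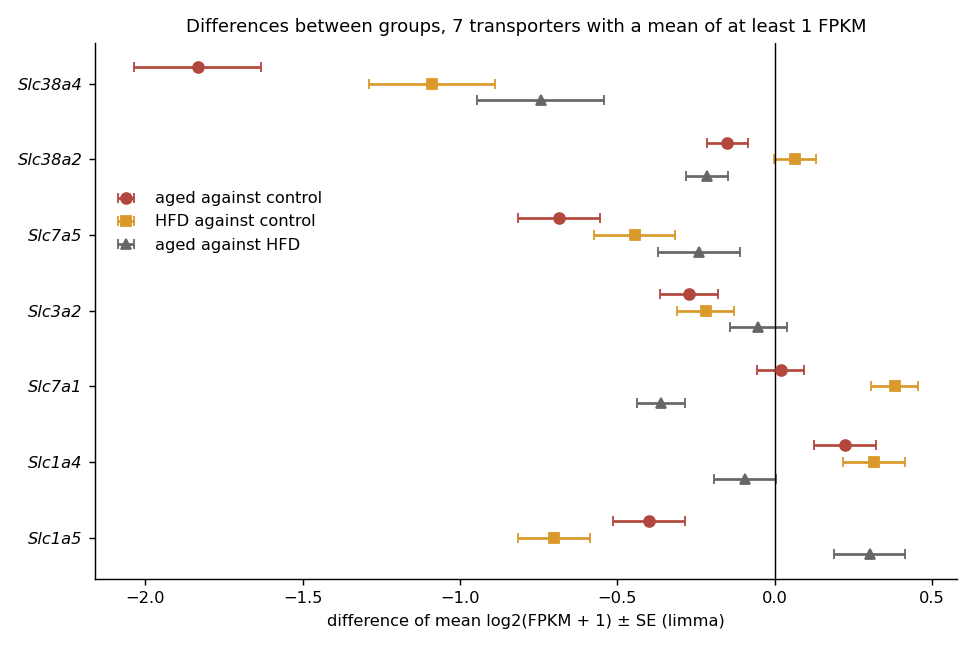
Difference of mean log2(FPKM + 1) ± SE (limma) for the 7 members averaging at least 1 FPKM, for aged against control (circles), HFD against control (squares) and aged against HFD (triangles). Slc38a4 is farthest to the left in all 3 comparisons (-1.83, -1.09 and -0.74), Slc1a5 and Slc7a5 are left of 0 against control in both groups, and Slc7a1 (0.38) and Slc1a4 (0.32) are to the right in HFD against control.

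Of the 6 members tested (without Slc38a4, chosen for its level, and Slc38a1, under 1 FPKM), aged against control called 0 higher and 1 lower, where 4.01% and 3.74% of all genes were called. At an unadjusted p under 0.05 there were 1 higher and 4 lower. In HFD against control 2 were called higher and 2 lower (2 and 3 unadjusted), where 8.26% and 8.76% of all genes were called. Aged against HFD called 0 higher (3.54% of all genes) and 1 lower (4.45%), and 1 and 2 unadjusted. The groups did not overlap for 4 of these 6 in aged against control, 4 of 6 in HFD against control and 2 of 6 in aged against HFD, beside 27.8%, 40.4% and 29.8% of all genes. The median log2 difference of the 6 was -0.21 in aged against control, -0.08 in HFD against control and -0.15 in aged against HFD, beside -0.01, 0.01 and -0.00 over all genes. The comparisons with control share the control libraries.

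By level, Slc38a2 (88.9 FPKM over the 9 libraries) stood above Slc3a2 (54.6 FPKM), Slc7a5 (44.5 FPKM), Slc1a4 (25.7 FPKM), Slc7a1 (23.3 FPKM), Slc38a4 (5.99 FPKM), Slc1a5 (5.72 FPKM) and Slc38a1. The order within groups differed at the low end. In aged cells Slc38a4 (2.38 ± 0.728 FPKM) was below Slc1a5 (5.44 ± 0.643 FPKM), and in control cells it was above it (10.9 ± 1.06 against 7.49 ± 0.753 FPKM). In HFD cells the libraries of Slc38a4 (4.74 ± 1.78 FPKM) and Slc1a5 (4.24 ± 0.681 FPKM) overlapped. Slc1a4 and Slc7a1 overlapped in HFD and control cells, while in aged cells every Slc1a4 value was above every Slc7a1 value.

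Of 48 further plasma membrane and lysosomal amino acid carriers, 47 were in the table, 14 had a mean of at least 1 FPKM and 10 were at 0 in all 9 libraries. In aged against control 1 of the 14 was called higher and 0 lower (3 and 2 at an unadjusted p under 0.05), and in HFD against control 2 were called higher and 0 lower (2 and 1). In aged against HFD 0 were called in either direction (1 and 0). The shares of all genes called higher and lower were 4.01% and 3.74%, 8.26% and 8.76%, and 3.54% and 4.45% in this order. The median log2 difference of the 14 was 0.07, -0.06 and 0.09 in these comparisons. Slc7a8, the light chain LAT2 that also pairs with Slc3a2, rose in both groups. It was at 2.67 ± 0.702 FPKM in aged, 2.10 ± 0.181 FPKM in HFD and 0.946 ± 0.178 FPKM in control cells, with differences of 0.90 ± 0.15 in aged (adjusted p = 0.00511) and 0.67 ± 0.15 in HFD (adjusted p = 0.0118). Both calls of Slc7a8 were made in 19 of 19 alternative settings. Its mean was far below that of Slc7a5 in all groups.

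Slc1a3, a glutamate and aspartate carrier, rose by 0.43 ± 0.12 in HFD cells, at 2.39 ± 0.193 FPKM against 1.52 ± 0.122 FPKM in control cells (adjusted p = 0.0279), a call made in 11 of 19 alternative settings. It ended with the GC correction, with no filter and when control replicate 1 or 2 or any HFD library was left out (adjusted p up to 0.0975). The taurine carrier Slc6a6 had the highest level of the 14, at 160 ± 22.8 FPKM in aged, 133 ± 22.9 FPKM in HFD and 136 ± 10.2 FPKM in control cells, and was not called. Slc7a6, a light chain of the y+L carrier for arginine and glutamine, was at 14.5 ± 0.423 FPKM in aged, 15.6 ± 1.67 FPKM in HFD and 17.5 ± 1.06 FPKM in control cells (adjusted p = 0.0903 in aged and 0.208 in HFD against control). The cystine carrier Slc7a11, which also pairs with Slc3a2, averaged 0.0962 FPKM, and the lysosomal arginine sensor Slc38a9 averaged 0.876 FPKM.

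**Figure D4:**
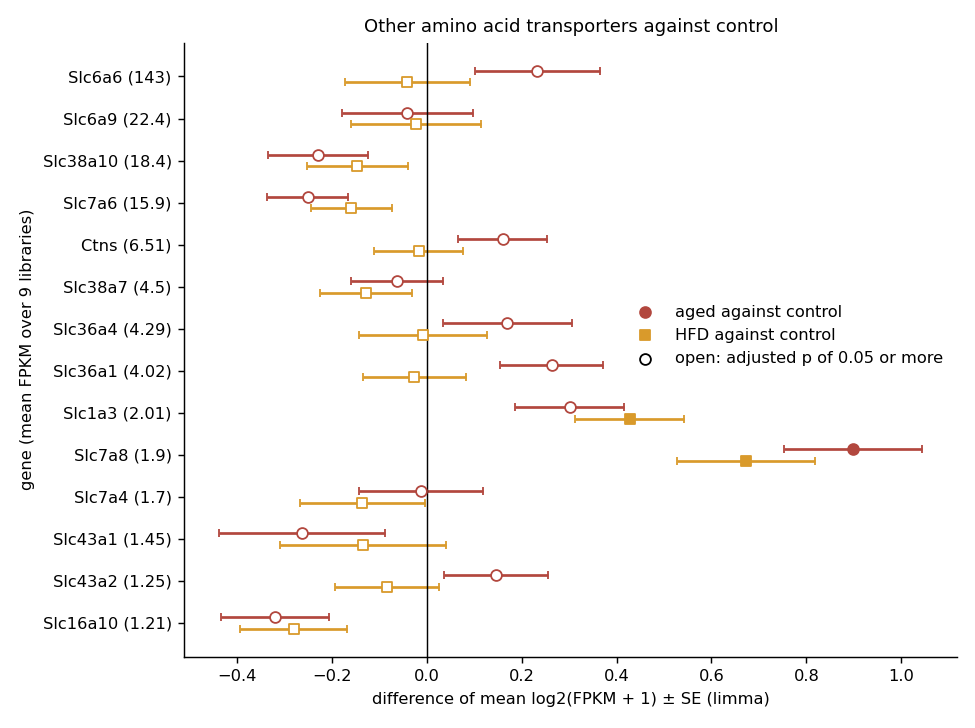
Difference of mean log2(FPKM + 1) ± SE (limma) for the 14 other amino acid transporters averaging at least 1 FPKM, ordered by that mean (in parentheses), for aged against control (circles) and HFD against control (squares). Filled symbols mark an adjusted p under 0.05: Slc7a8 in both groups (0.90 and 0.67) and Slc1a3 in HFD (0.43).

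Of 32 tested genes through which mTORC1 senses amino acids, 0 were called in either direction in aged against control (3 higher and 5 lower at an unadjusted p under 0.05), 2 higher and 3 lower in HFD against control, and 1 higher and 1 lower in aged against HFD. Beside these counts, 4.01% and 3.74%, 8.26% and 8.76%, and 3.54% and 4.45% of all genes were called higher and lower. Nprl3 and Wdr24, parts of the GATOR complexes upstream of the Rag GTPases, fell in HFD cells by 0.41 ± 0.10 (adjusted p = 0.0175) and 0.40 ± 0.10 (adjusted p = 0.0199). Akt1s1, the mTORC1 inhibitor PRAS40, fell by 0.35 ± 0.09 (adjusted p = 0.0267), and Lamtor5, of the lysosomal Ragulator scaffold, rose by 0.26 ± 0.08 (adjusted p = 0.0459). With the GC correction Wdr24, Akt1s1 and Lamtor5 were not called. Sesn2, a leucine sensor that ATF4 induces, rose in aged against HFD cells by 0.45 ± 0.10 (adjusted p = 0.0227), at 6.01 ± 0.684 FPKM in aged against 4.12 ± 0.538 FPKM in HFD cells. Leaving out control replicate 2 or 3 ended the calls of Nprl3, Wdr24 and Akt1s1, as did HFD replicate 1 or 3 for Nprl3 and Akt1s1 and HFD replicate 2 for Wdr24. That of Lamtor5 ended without control replicate 1 or 2, aged replicate 2 or any HFD library, and that of Sesn2 without HFD replicate 1 or 2 or aged replicate 3 (0.0759 at most for Sesn2, 0.164 for Lamtor5).

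Genes of the GCN2 and ATF4 response went both ways. Of 24 tested, 3 were called higher and 2 lower in aged against control, 3 higher and 2 lower in HFD against control, and 2 higher and 3 lower in aged against HFD, with medians of 0.04, 0.00 and 0.06 on the log2 scale. Among all genes 4.01% and 3.74%, 8.26% and 8.76%, and 3.54% and 4.45% were called higher and lower in the same order. Nupr1, a stress-induced chromatin protein, rose in both groups, to 3.73 ± 0.729 FPKM in aged and 2.56 ± 0.556 FPKM in HFD cells, against 1.16 ± 0.285 FPKM in control cells. Its differences were 1.13 ± 0.15 in aged (adjusted p = 0.00201) and 0.72 ± 0.15 in HFD (adjusted p = 0.0107), called in 19 of 19 alternative settings each. Ddit3 (CHOP), a transcription factor of prolonged stress, rose in aged cells by 0.37 ± 0.10 (adjusted p = 0.0396), with a call in 8 of 20 settings. Psat1 and Atf5 rose in HFD cells by 0.32 ± 0.07 (adjusted p = 0.0138) and 0.37 ± 0.10 (adjusted p = 0.0296), while Gcn1, the activator of GCN2, fell by 0.33 ± 0.10 (adjusted p = 0.0393), not called with the GC correction. The Psat1 call ended without control replicate 2 (adjusted p = 0.0610). Without control replicate 2 the Atf5 and Gcn1 calls ended too, as did that of Atf5 without control replicate 1 or HFD replicate 1 or 2 and that of Gcn1 without control replicate 3 or any HFD library. The Ddit3 call ended without control replicate 1 or 3, aged replicate 1 or 2 or any HFD library (adjusted p at most 0.130).

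Phgdh, the entry enzyme of serine synthesis, was at 87.2 ± 2.77 FPKM in aged against 117 ± 13.9 FPKM in control cells (-0.42 ± 0.09, adjusted p = 0.0219). Shmt2, which makes glycine from serine in mitochondria, was at 42.3 ± 2.91 FPKM in aged against 56.6 ± 5.90 FPKM in control cells (-0.41 ± 0.09, adjusted p = 0.0187). Both calls ended when control replicate 2, control replicate 3, aged replicate 1 or aged replicate 2 was left out (adjusted p up to 0.0730). Psat1, the next enzyme after Phgdh, was at 120 ± 3.34 FPKM in HFD against 96.2 ± 5.22 FPKM in control cells. Mthfd2, of mitochondrial folate metabolism, fell in aged against HFD cells by 0.67 ± 0.14 (adjusted p = 0.0145), Atf5 by 0.43 ± 0.10 (adjusted p = 0.0273) and Asns, asparagine synthetase, by 0.34 ± 0.08 (adjusted p = 0.0319). Ppp1r15a, which reverses the GCN2 step on eIF2 alpha, rose there by 0.70 ± 0.14 (adjusted p = 0.0122). Without HFD replicate 2 none of these 4 calls held, and those of Atf5 and Asns also ended without HFD replicate 1, aged replicate 2 and other single libraries.

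Among 26 tested enzymes of glutamine and non-essential amino acids, 1 was called higher and 3 lower in aged against control, 1 higher and 3 lower in HFD against control, and 1 higher and 1 lower in aged against HFD. All genes tested gave 4.01% and 3.74%, 8.26% and 8.76%, and 3.54% and 4.45% called higher and lower in that order. Ass1, which makes the arginine precursor argininosuccinate, rose in aged cells to 49.9 ± 1.24 FPKM against 35.6 ± 5.604 FPKM in control cells (0.49 ± 0.09, adjusted p = 0.0128). Odc1, which turns ornithine into putrescine, fell to 12.6 ± 0.303 FPKM in aged against 17.9 ± 0.919 FPKM in control cells (-0.47 ± 0.08, adjusted p = 0.00691). Both were called in 20 of 20 alternative settings. Odc1 also fell in HFD cells, by 0.28 ± 0.08 (adjusted p = 0.0369), a call lost with the GC correction. Bckdhb, a subunit of the enzyme that breaks down branched-chain amino acids, fell in HFD cells to 8.21 ± 1.24 FPKM against 11.1 ± 1.31 FPKM in control cells (-0.40 ± 0.11, adjusted p = 0.0277). It was higher in aged than in HFD cells by 0.56 ± 0.11 (adjusted p = 0.00971). The HFD calls of Odc1 and Bckdhb both ended when HFD replicate 2, control replicate 2 or control replicate 3 was left out (adjusted p at most 0.133). That of Odc1 also ended without HFD replicate 1 and that of Bckdhb without HFD replicate 3. The aged against HFD call of Bckdhb was made in 20 of 20 settings.

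The cytosolic aminoacyl-tRNA synthetases, which load amino acids onto tRNAs, were all 20 above 1 FPKM. In aged against control 0 were called higher and 3 lower (0 and 6 at an unadjusted p under 0.05), in HFD against control 2 higher and 1 lower, and in aged against HFD 0 higher and 6 lower (0 and 10). Over all genes the shares called higher and lower were 4.01% and 3.74%, 8.26% and 8.76%, and 3.54% and 4.45% in the same order. The median log2 difference of the 20 synthetases was -0.09, 0.06 and -0.14 in these comparisons. Vars, for valine, fell in aged cells to 27.2 ± 2.92 FPKM against 38.1 ± 3.20 FPKM in control cells (-0.47 ± 0.09, adjusted p = 0.0117), called in 20 of 20 alternative settings. Aars, for alanine, fell there by 0.30 ± 0.07 (adjusted p = 0.0305) and Yars, for tyrosine, by 0.34 ± 0.09 (adjusted p = 0.0394), neither called with the GC correction or without any single control library, aged replicate 1 or aged replicate 2 (adjusted p at most 0.122). The Yars call also ended without HFD replicate 2 or aged replicate 3. Rars, for arginine, rose in HFD cells to 43.0 ± 2.90 FPKM against 32.9 ± 1.78 FPKM in control cells (0.38 ± 0.08, adjusted p = 0.0132), a call lost without control replicate 2 or HFD replicate 1 (0.0577 at most). Vars fell in HFD against control cells too, to 29.8 ± 1.38 FPKM (-0.34 ± 0.09, adjusted p = 0.0243). Nars rose in HFD against control cells by 0.24 ± 0.07 (adjusted p = 0.0391). The HFD call of Vars was made in 13 of 20 settings and that of Nars in 10 of 20. Both were lost with the GC correction and with some single libraries left out. Yars, Nars, Farsb, Aars, Cars and Lars fell in aged against HFD cells, by 0.30 to 0.46 on the log2 scale. The Yars call there was made in 20 of 20 settings and the other 5 in 10 to 17 of 20, each ending when HFD replicate 1 was left out.

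The genes whose profile over the 9 libraries was nearest to that of Slc38a4 were Has3, Npas2 and Mmp3. Lce1c and Lce1b came next, with means under 1 FPKM in aged and HFD cells. Nearness was the root mean square difference of log2(FPKM + 1), each gene set to its control mean, over 10196 genes, where the median was 1.27. Has3, a hyaluronan synthase, was nearest at 0.545, followed by Npas2, a clock transcription factor, at 0.548 and Mmp3, a matrix metalloproteinase, at 0.551. The late cornified envelope genes Lce1c and Lce1b followed at 0.577 and 0.580. Lce1c averaged 0.635 FPKM in aged, 0.865 FPKM in HFD and 2.43 FPKM in control cells. Lce1b averaged 0.641, 0.419 and 2.31 FPKM in the same order. Both therefore reached a mean of 1 FPKM over the 9 libraries only through the control group, where they are high. Lce1c in HFD replicate 2 (1.68 FPKM) and aged replicate 2 (1.13 FPKM) was above control replicate 3 (0.885 FPKM). For Lce1b every aged and HFD library was below control. Has3 was at 2.502, 4.14 and 3.62 FPKM in aged, 4.02, 6.80 and 8.62 FPKM in HFD and 10.7, 8.83 and 9.12 FPKM in control libraries. As for Slc38a4, its HFD mean lay between the aged and control means. Npas2 averaged 2.78 ± 0.859 FPKM in aged, 2.95 ± 0.894 FPKM in HFD and 10.1 ± 1.75 FPKM in control cells. Mmp3 averaged 3.76 ± 1.018 FPKM in aged, 3.44 ± 1.08 FPKM in HFD and 10.6 ± 3.42 FPKM in control cells. For both, the aged and HFD means lay within 1 SD of each other. Among the other members Slc7a5 was nearest at rank 49 (0.822) and Slc1a5 came next at rank 133 (0.918), while Slc3a2 was at rank 873 and Slc38a2 at rank 3362. Slc7a1 and Slc1a4 were at ranks 8241 and 9265. This is a description over libraries that also chose Slc38a4.

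**Figure D5:**
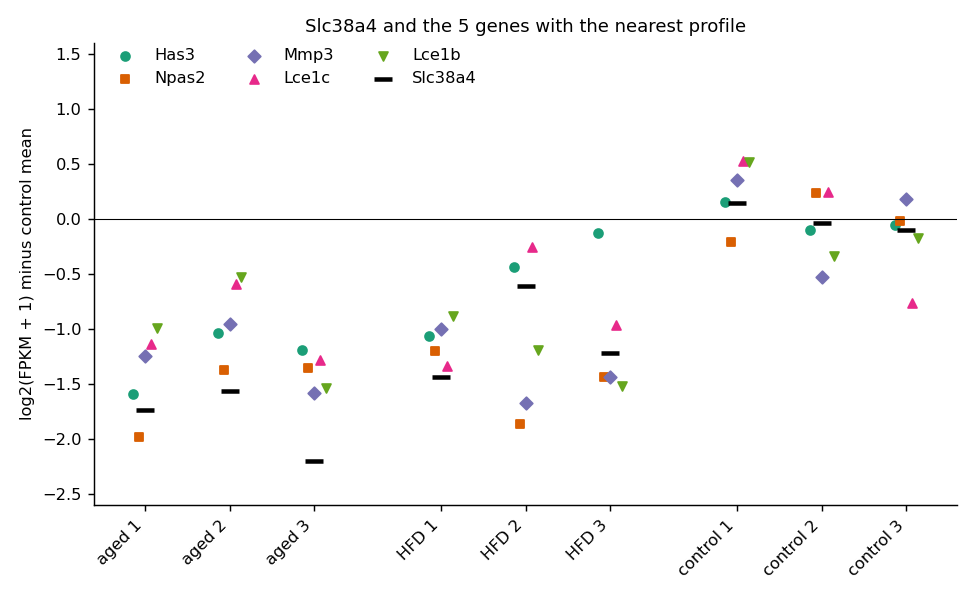
log2(FPKM + 1) minus the gene's control mean in each of the 9 libraries, for Slc38a4 (black bars) and the 5 genes with the nearest profile. All 6 genes are below 0 in every aged and HFD library, and Has3 is near 0 in HFD replicate 3, where Slc38a4 is low.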

How the data were processed

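Basal keratinocyte RNA was sequenced from TruSeq stranded mRNA libraries on a NextSeq instrument, per the labels. The authors deposited 1 table of FPKM with a column per library. The submitters' processing notes name the mm10 genome, the aligner STAR 2.6.0c, the counter HTSeq 0.11.2, DESeq2 1.30.0 and the trimmer cutadapt. Which tool made the FPKM, which gene lengths it used and whether counting used strand are not given in the sources used here. The single-cell data of the series were not used here.

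Here log2(FPKM + 1) was fitted with limma 3.58.1 (R 4.3.3, eBayes with a trend, two-sided) for the 10367 genes that averaged at least 1 FPKM. All 9 libraries entered 1 model with group means, which left 6 residual degrees of freedom (prior 5.50). FPKM multiplied by the merged exon length of GENCODE M21, which matched 22285 identifiers, gave whole reads for 97.5% to 98.2% of values up to 30 reads (tolerance 0.02), and depth was estimated from this step. The limma step was tested on simulated data, for HFD against control.

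The members and the 6 gene lists were chosen with earlier results of these data known. The aged against HFD test planned for Slc38a4 was dropped, since it uses libraries the gene was chosen on. Named genes are all members, up to 4 called genes per list with the smallest p in each comparison with control, the 5 nearest profiles and the genes starting within 1 Mb of Slc38a4. Genes named for aged against HFD, and the transporters named without a call, were chosen after their values were seen. The result of 1 gene that this rule names is not reported here. Alternatives were a pseudocount of 0.1, no filter, a minimum of 5 FPKM, quantile, median-ratio and total scaling, a GC correction (loess, span 0.5), a replicate block, limma's robust setting, a fit on the 6 libraries of a comparison alone, and leaving out each library.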

Additional observations from a re-analysis of the deposited data

How the results depend on the processing

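The number of members called in HFD against control (4) was 2 with no filter on low values and 2 to 4 with a library left out. In aged against control (1) it was 2 with scaling to total FPKM, 2 with the replicate block and 1 to 2 with a library left out. In aged against HFD (1) it was 0 without HFD replicate 3 and 0 to 1 over the libraries left out. Over all genes, HFD against control called 1764, 1162 with the GC correction and 749 to 2109 with a library left out; aged against control called 804, 469 with only the 6 libraries and 300 to 1247 with a library left out; aged against HFD called 828, 541 with no filter and 379 to 782 with a library left out. Scaling to total FPKM gave 597 higher and 1165 lower calls in HFD and 360 and 507 in aged against control, beside 856 and 908, and 416 and 388; the GC correction gave 460 and 284 in aged against control. Over the pathway lists HFD against control called 18 genes and 3 to 22 with a library left out, aged against control 12 and 5 to 13, and aged against HFD 14, 3 to 13 and 7 with no filter. The Slc38a4 difference in aged against control was -2.19 with a pseudocount of 0.1 and -1.97 to -1.65 with a library left out, and in HFD against control -1.33 to -0.91. In aged against HFD it was -0.92 to -0.51 with a library left out. The sign of Slc38a2 in HFD against control turned to -0.027 with quantile normalization and to -0.026 with the GC correction, alone or beside the replicate block. That of Slc7a1 in aged against control turned to -0.013 with total scaling and ranged over -0.023 to 0.065 with a library left out, and that of Slc3a2 in aged against HFD ranged over -0.12 to 0.049. With a library left out, the difference of the light to heavy chain ratio ranged over -0.50 to -0.31 on the log2 scale in aged and -0.28 to -0.16 in HFD against control, and over -0.27 to -0.08 in aged against HFD. The system A sum then differed by -18.9 to -16.3 FPKM in aged and -4.72 to 1.79 FPKM in HFD against control, and by -19.4 to -12.8 FPKM in aged against HFD. The Slc38a4 share differed by -8.27 to -7.35, -6.94 to -5.43 and -2.46 to -0.94 percentage points in the same order. The cause of these shifts was not tested. The labels tie libraries with the same replicate number by that number only, and whether they share a batch is not stated. The correlation of their deviations was -0.05 to 0.27 over 9 pairs (median 0.10), not above 0.1 in every pair. Between libraries with different numbers it was -0.29 to 0.22 over 18 pairs (median -0.06). With the replicate block 978 and 1083 genes were called higher and lower in HFD against control, 557 and 580 in aged against control and 465 and 522 in aged against HFD, and Slc3a2 in aged against control was called (adjusted p = 0.0442). Depth limits Slc38a1, at an estimated 0 to 6 reads per library. The lowest library held an estimated 206 reads for Slc38a4 and 423 for Slc1a5. Whether depth limits the members other than Slc38a1 was not tested.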

Other observations

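Slc38a4 lies among 14 genes of the table that start within 1 Mb of its start on chromosome 15, of which 10 were tested, Slc38a2 among them. In aged against control 1 of the 10 was called higher and 0 lower, in HFD against control 0 in either direction with limma (2 higher and 1 lower at an unadjusted p under 0.05), and in aged against HFD 1 higher and 0 lower. Table-wide, 4.01% and 3.74%, 8.26% and 8.76%, and 3.54% and 4.45% of genes tested were called higher and lower in these comparisons. Rapgef3, an exchange factor for Rap GTPases that cAMP activates, was at 2.56 ± 0.532 FPKM in aged, 2.04 ± 0.233 FPKM in HFD and 1.301 ± 0.248 FPKM in control cells (aged against control 0.62 ± 0.13, adjusted p = 0.0187), a call lost without control replicate 2 or aged replicate 1 or 2 (adjusted p at most 0.0721). Tmem106c, a transmembrane protein gene, rose in aged against HFD cells by 0.38 ± 0.09 (adjusted p = 0.0331), a call made in 14 of 20 alternative settings and lost without HFD replicate 1 or 3 or aged replicate 1 or 2 (adjusted p at most 0.117). Pced1b, whose start is 191 kb from that of Slc38a4, had a mean under 1 FPKM and was not tested. It was at 0.484 ± 0.0699 FPKM in aged, 0.622 ± 0.0888 FPKM in HFD and 1.17 ± 0.205 FPKM in control cells. Arid2, Scaf11, Rpap3, Endou, Slc48a1, Hdac7 and Vdr were tested and not called in any comparison, and Amigo2, Col2a1 and Slc38a1 were under 1 FPKM.

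Among 35 other imprinted genes, 29 were in the table and 11 were tested. In aged against control 1 was called higher and 0 lower, in HFD against control 0 were called in either direction (1 higher and 2 lower at an unadjusted p under 0.05), and in aged against HFD 1 was called higher and 0 lower. The same comparisons called 4.01% and 3.74%, 8.26% and 8.76%, and 3.54% and 4.45% of all genes higher and lower. Inpp5f, a phosphoinositide phosphatase, was at 4.32 ± 0.244 FPKM in aged against 3.19 ± 0.336 FPKM in control cells (0.35 ± 0.09, adjusted p = 0.0365), a call made in 8 of 19 alternative settings and lost when control replicate 2 or 3, aged replicate 1 or 2 or any HFD library was left out. Cdkn1c, a cell cycle inhibitor, was at 1.43 ± 0.211 FPKM in aged against 0.733 ± 0.213 FPKM in HFD cells (0.49 ± 0.13, adjusted p = 0.0449), a call made in 4 of 17 alternative settings and lost when any control or HFD library or aged replicate 1 was left out. Its mean over the 9 libraries, 1.03 FPKM, passed the minimum of 1 FPKM only with the aged libraries, and without aged replicate 2 or 3 it was 0.979 or 0.960 FPKM, so that the gene entered the test through the group where it is high.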
